A study of Sus scrofa with 22 samples.

Results

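The genes described here encode the machinery of oxidative phosphorylation: the 4 complexes of the mitochondrial respiratory chain, the electron carrier cytochrome c and the ATP synthase. Members were all genes whose single annotated symbol began with NDUFA, NDUFB, NDUFC, NDUFS, NDUFV, SDHA to SDHD, UQCR or ATP5, or with COX followed by a digit from 4 to 8, together with CYCS. This rule found 65 of the 6765 genes with 1 annotated symbol on an Affymetrix porcine array. Of these, 60 are subunits or cytochrome c: 32 of complex I (5 core and 27 accessory), 4 of complex II, 2 of complex III, 8 of complex IV, 13 of complex V, and CYCS. NDUFA4 was counted with complex IV, because it is now regarded as a cytochrome c oxidase subunit despite its name. The other 5 were caught by the spelling of their symbols and are not subunits (NDUFAF1, NDUFAF2, NDUFAF3, SDHAF2 and ATP5S), and they are kept apart below. Each gene is represented by the probe set with its highest mean log2(signal + 16) over the 22 arrays, and all 65 lay above the background signal of 69.7 on that mean.

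Complex I passes electrons from NADH, and complex II from succinate, to ubiquinone. Complex III hands them to cytochrome c, and complex IV passes them on to oxygen. Complexes I, III and IV pump protons out of the matrix, and complex V, the ATP synthase, lets them back in to make ATP. All 60 subunit genes here are read from nuclear DNA, and several of them exist in muscle and general forms. In skeletal muscle this system supplies slow, oxidative fibres in particular.

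The samples were offspring of German Landrace gilts that had all received the gestational adequate protein [AP] diet, and no other diet enters the comparisons. Fetuses were taken at 94 dpc (days post conception, n = 6) and piglets or older pigs at 1 dpn (days after birth, n = 6), 28 dpn (n = 6) and 188 dpn (n = 4). Offspring of 3 gilts were collected at each age, but which animals shared a gilt is not stated in these sources, so the p-values treat littermates as independent. Every sample label names liver, whereas the series title names muscle. Of 14 skeletal muscle markers 10 were measured, all with stage means above background at every age, on the 22 arrays. Of 12 liver markers 11 were measured, with summed signals of 7879 to 55632 at 94 dpc, 2405 to 10872 at 1 dpn, 2521 to 12517 at 28 dpn and 1869 to 6802 at 188 dpn, and 2 of them had means below background at 28 dpn and at 188 dpn. These markers go against the liver label, and the tissue is called muscle-like here. The summed muscle markers ran from 252938 to 328994 at 94 dpc, 336929 to 475662 at 1 dpn, 596423 to 689589 at 28 dpn and 582145 to 649087 at 188 dpn. Adipocyte markers (3 of 5 measured) summed to 2763 to 5922, 7296 to 15320, 4404 to 9370.4 and 2156 to 4070.0 at the same ages, 4 measured exocrine pancreas markers reached 11092 on 1 array of 1 dpn, and 4 erythroid markers stayed at or below 2598. Cardiac markers (4 of 6 measured) summed to 32270.4 to 43108 at 94 dpc, 34233 to 66149.9 at 1 dpn, 13809 to 51016 at 28 dpn and 856 to 11501 at 188 dpn. The part of these markers in the results was not tested. In such bulk tissue, fewer cells of a type and less RNA per cell cannot be told apart. On 4 of the 6 arrays of 1 dpn (replicates 2 to 5) the 3′ end of GAPDH was brighter than its 5′ end by a ratio of 3.01 to 7.16, against 0.795 to 1.37 on the other 18 arrays. A 3′ to 5′ ratio well above 1 is a usual sign of shortened RNA. For both steps around 1 dpn, the counts, the medians and the calls that were kept or lost are therefore also given from the other pair of 1 dpn arrays alone, replicates 1 and 6, whose GAPDH ratio was under 3.

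Transcripts of oxidative phosphorylation were called different over the 4 ages in 62 of 65 members (limma F test, adjusted p under 0.05), against 51.4% of all 23999 probe sets. With only the probe sets brighter than the median one it was 63 members, against 81.1%. With all probe sets tested, the 3 members without a call were ATP5G2 (adjusted p = 0.338), which encodes subunit c of the ATP synthase, NDUFV3 (0.155), a small accessory subunit of complex I, and the assembly factor NDUFAF3 (0.0565). Taken by stage means, 1 member (COX6A1) was highest at 94 dpc, 44 at 1 dpn, 18 at 28 dpn and 2 (ATP5J and NDUFAF1) at 188 dpn. With only the 1 dpn arrays whose GAPDH ratio was under 3, those counts were 2, 29, 29 and 5. The lowest mean was at 94 dpc for 49 members in both cases.

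**Figure D1:**
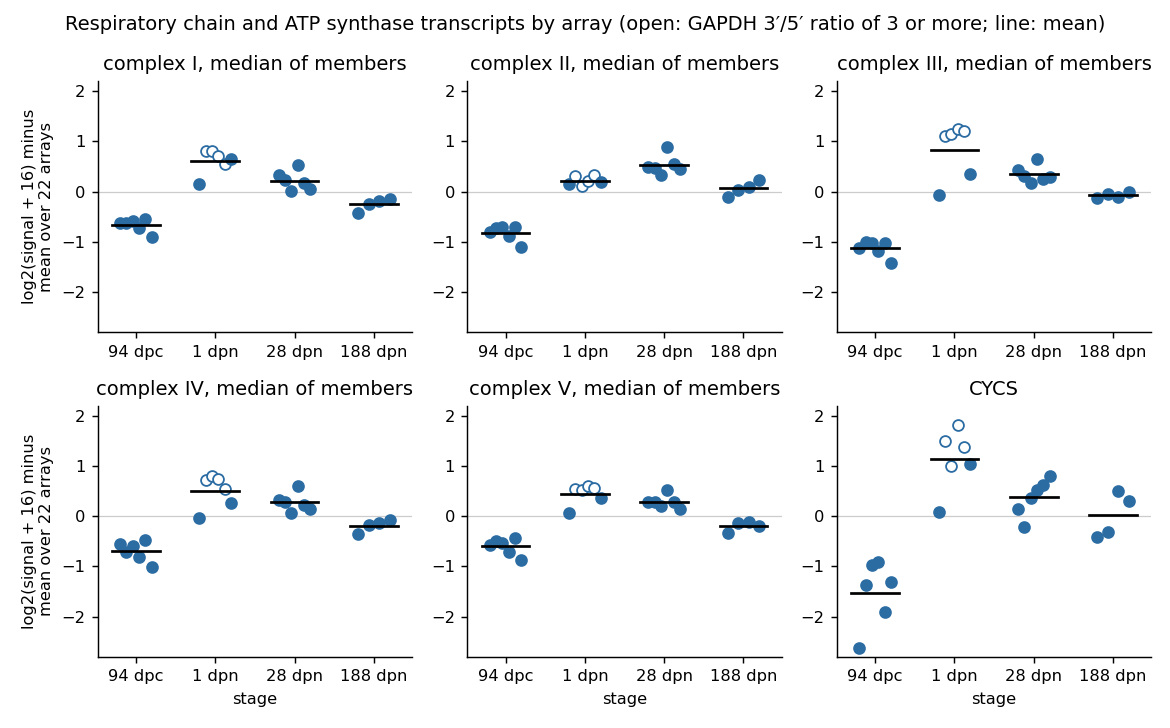
Each point is 1 array: the median over the members of a complex of log2(signal + 16) minus that gene's mean over the 22 arrays, with CYCS alone in the last panel. Lines are stage means, and open points are the 4 arrays of 1 dpn with a GAPDH 3′/5′ ratio of 3 or more. All panels are lowest at 94 dpc. Complex II has its highest mean, 0.53, at 28 dpn and the others at 1 dpn, on all 22 arrays. On the 2 filled points of 1 dpn, complex III stood at -0.07 and 0.34, IV at -0.03 and 0.25 and V at 0.05 and 0.37. Their 28 dpn means were 0.35, 0.27 and 0.28. On the same points complex I stood at 0.15 and 0.65, against 0.22 at 28 dpn, and CYCS at 0.09 and 1.03, against 0.37. After quantile normalization the median change at 188 dpn against 94 dpc has the opposite sign for complexes I and V.

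At 1 dpn compared with 94 dpc, 57 of 65 members were higher and 0 lower, where 10.9% of all probe sets were called higher and 21.7% lower. When the probe sets dimmer than the median one were left out, 58 members were higher and 0 lower, against shares of 19.0% and 36.1%. The median change of the members was log2 1.19, and that of all probe sets was -0.08. In 48 members every 1 dpn value lay above every 94 dpc value, which held for 5.29% of all probe sets, and in 0 did they all lie below (11.2%). Complex I contributed 28 of 32, complex II 4 of 4, complex III 2 of 2, complex IV 7 of 8 and complex V 12 of 13. ATP5I of the ATP synthase rose most (27.4-fold), before cytochrome c (CYCS, 6.31-fold), the complex I subunit NDUFC1 (6.27-fold) and the complex III subunit UQCRB (5.04-fold). The subunit genes not called were NDUFV3, NDUFS6, NDUFS7, NDUFB7, COX6A1 and ATP5G2, and of the non-subunits NDUFAF2 and NDUFAF3. With the 1 dpn arrays whose GAPDH ratio was under 3, 50 were higher and 0 lower (7.79% and 17.6% of all probe sets) with a median of 0.82, and 48 of the 57 calls were shared. The 9 calls lost were those of NDUFA5, NDUFA11, NDUFB3, NDUFS3, SDHD, COX8H, ATP5E, NDUFAF1 and ATP5S. The 4 arrays whose ratio was 3 or more gave 58 higher and 2 lower (13.3% and 22.8%) with a median of 1.37. Quantile normalization gave 47 higher and 3 lower (14.3% and 15.8% of all probe sets) with a median of 0.75, and 47 of the 57 calls were shared. The 3 called lower there were ATP5G2, COX6A1 and NDUFS6.

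At 28 dpn compared with 1 dpn, 3 members were higher (SDHB, NDUFS6 and NDUFAF1) and 18 lower, where 13.9% of all probe sets were called higher and 8.39% lower. Among the probe sets brighter than the median one 6 members were higher and 22 lower, against shares of 24.4% and 17.8%. The median change was log2 -0.32, against 0.10 over all probe sets. Of the 18 falls 12 were accessory subunits of complex I, and the deepest were those of ATP5I (log2 -2.58) and COX7A2 (-1.86), the general form of subunit 7a of complex IV. With the 1 dpn arrays whose GAPDH ratio was under 3, 6 members were higher and 4 lower (11.2% and 5.39% of all probe sets) and the median was 0.03. Of the 21 calls 5 were shared: SDHB and NDUFAF1 higher, and NDUFA7, NDUFB5 and COX7A2 lower. The 5 added calls were ATP5A1, COX7A1, COX8H and NDUFA5, which were higher, and NDUFAF3, which was lower. With the 4 arrays whose ratio was 3 or more, 5 were higher and 33 lower (15.8% and 11.2% of all probe sets), with a median of -0.48. The values of both ages did not overlap in 2 members that were higher (4.98% of all probe sets) and in 2 that were lower (3.05%). In 31 of 65 members both 1 dpn arrays with the lower GAPDH ratio lay below all 4 others, which held for 16.5% of all probe sets, and in 6 they lay above (10.6%). The GAPDH ratio thus moved with this step, and its part in the result was not tested. Centring each array on its median probe set gave 1 higher and 33 lower, against 9.17% and 13.9% of all probe sets.

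At 188 dpn compared with 28 dpn, 0 members were higher and 16 lower, where 3.65% of all probe sets were called higher and 8.20% lower. Among the probe sets brighter than the median one 0 members were higher and 24 lower, against shares of 9.48% and 18.3%. The median change was log2 -0.37, against -0.12 over all probe sets. In 27 members every 188 dpn value lay below every 28 dpn value, which held for 8.13% of all probe sets, and in 0 members did they all lie above (5.21%). The falls took in 6 of 32 members of complex I, 2 of 4 of complex II, 3 of 8 of complex IV and 5 of 13 of complex V, but neither member of complex III. The deepest was that of NDUFV1 (log2 -1.23), which binds NADH in complex I. This step has no 1 dpn array in it, but the number of calls depended on scaling. Centring each array left 9 of the 16 calls, against 4.77% of all probe sets called lower. The calls of SDHA, COX7A1, COX8H, NDUFA4, ATP5A1, ATP5B and ATP5D were lost. Quantile normalization kept all 16 and gave 18 lower, against 6.01%. The members' median minus that of all probe sets was -0.25 as deposited, -0.25 when centred and -0.40 after quantile normalization.

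**Figure D2:**
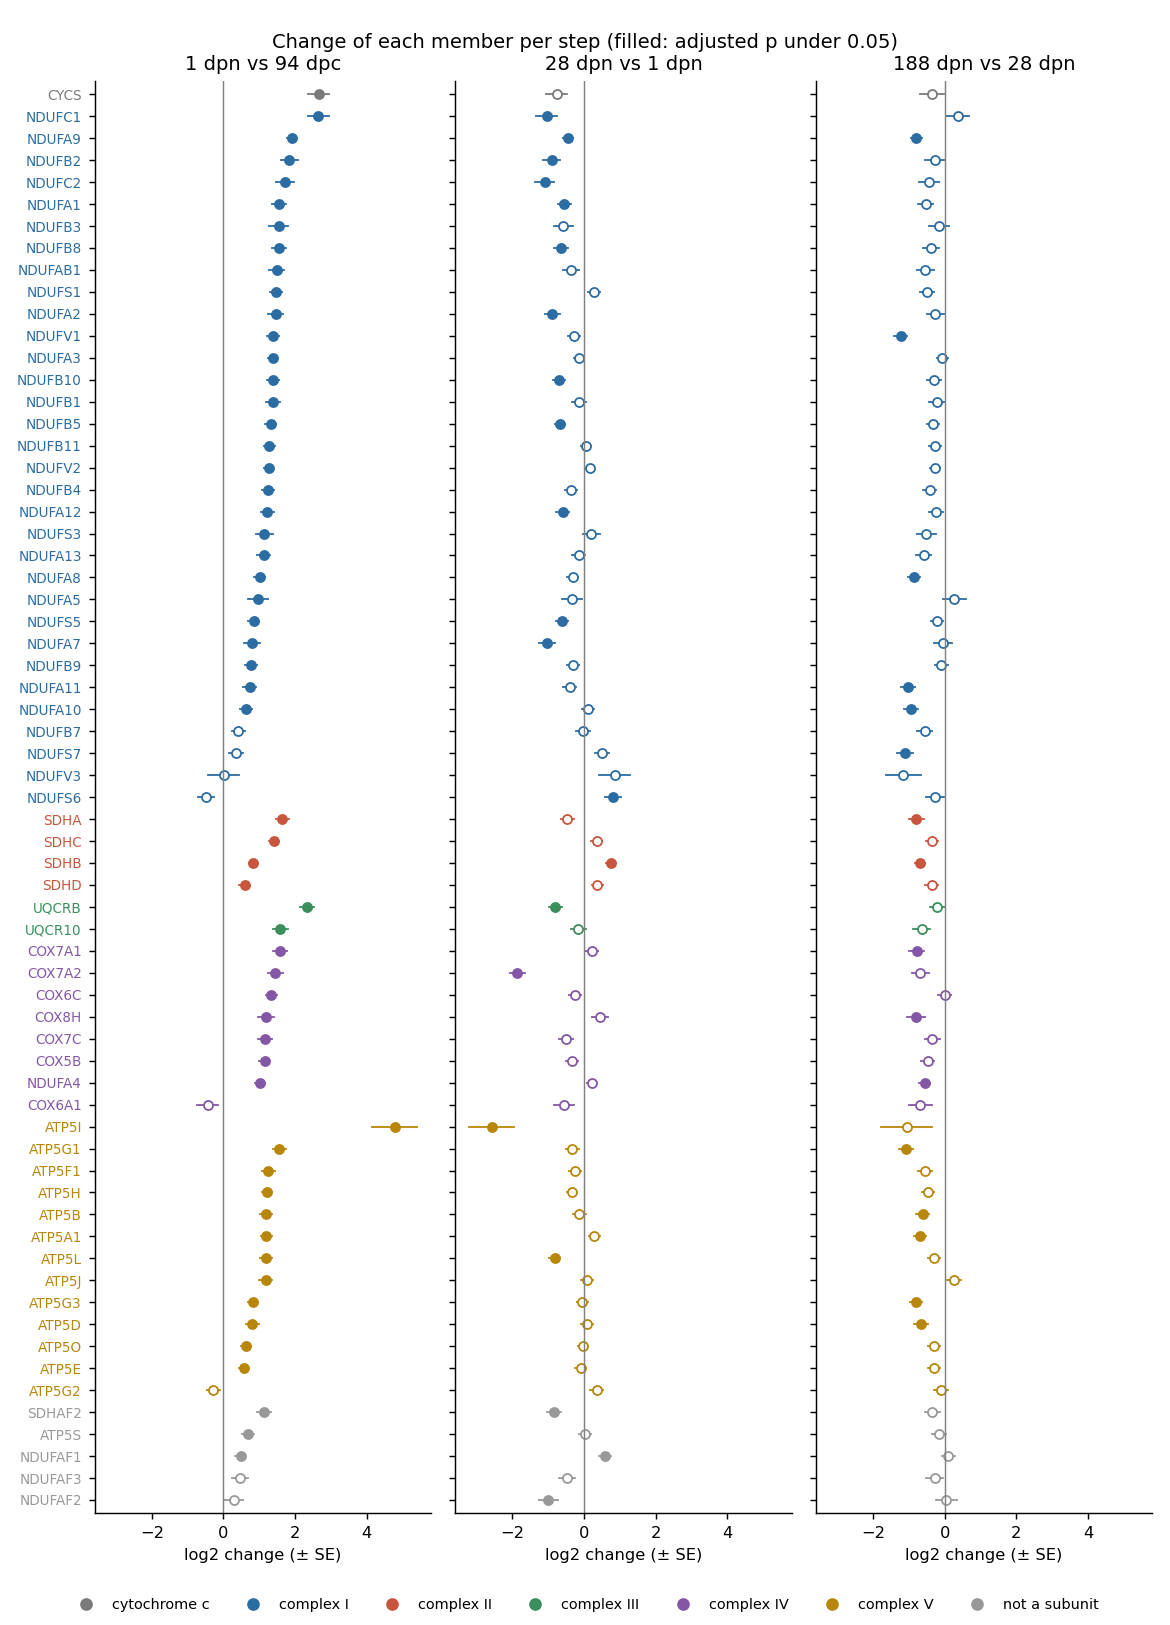
The log2 change of each of the 65 members in each of the 3 steps, later minus earlier age, with its SE, coloured by complex and ordered within a complex by the change at 1 dpn. Filled points passed the limma test at adjusted p under 0.05: 57 higher at 1 dpn, 3 higher and 18 lower at 28 dpn, and 16 lower at 188 dpn, 9 of them also when arrays were centred.

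The core subunits of complex I include those that carry its flavin and iron-sulphur centres. Of the core subunits 5 were measured: NDUFV1, NDUFV2, NDUFS1, NDUFS3 and NDUFS7. At 1 dpn compared with 94 dpc 4 of them were higher, with a median over the 5 of log2 1.26 (1.25 with the 1 dpn arrays of lower ratio). None of the 5 was called at 28 dpn compared with 1 dpn, with a median of 0.20 and changes between -0.29 and 0.50 (NDUFS7). NDUFS1, NDUFS3, NDUFS7 and NDUFV2 had their highest stage mean at 28 dpn with all 6 arrays of 1 dpn and with the 2 of lower ratio, whereas NDUFS3 changed by -0.0070 at 28 dpn with the 4 of higher ratio. NDUFV1 (log2 -1.23) and NDUFS7 (-1.12) were lower at 188 dpn than at 28 dpn, and all 5 changes were below 0.

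Signals are given from here on as the lowest, median and highest of the 6 arrays of an age, and as the 4 values of 188 dpn. NDUFV1 had signals of 2727, 3264 and 4079.6 at 94 dpc, 7002, 8709.7 and 10185 at 1 dpn, 5385, 6671 and 10967 at 28 dpn, and 2610.3, 3146, 2869.9 and 3400.5 at 188 dpn. The values of 1 dpn and 28 dpn overlapped each other and lay above those of the other ages. Its change was log2 1.39 (SE 0.17, adjusted p = 1.8e-06) at 1 dpn compared with 94 dpc and -1.23 (SE 0.19, adjusted p = 0.000199) at 188 dpn compared with 28 dpn. NDUFS1, which holds several iron-sulphur centres, had signals of 1103, 1208 and 1612 at 94 dpc, 2647, 3519 and 5546 at 1 dpn, 3574, 4406 and 5112 at 28 dpn, and 2893, 2949, 3069 and 3419 at 188 dpn. It was 2.4-fold higher at 188 dpn than at 94 dpc (adjusted p = 1.24e-05), whereas NDUFV1 had no call there (log2 -0.13). NDUFV2 was represented by 3 probe sets, whose changes at 28 dpn compared with 1 dpn were 0.16 for the brightest and -1.07 and -0.45, both called, for the others. For NDUFS3, the other core gene with several probe sets, they were 0.20 for the brightest and 0.72 and 1.38, both called.

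The 27 accessory subunits surround this core and are needed for its assembly and stability. At 1 dpn compared with 94 dpc 24 were higher and 0 lower, with a median of log2 1.28 (0.88 with the 1 dpn arrays of lower ratio). At 28 dpn compared with 1 dpn 1 was higher and 12 lower, with a median of -0.41. With the arrays of lower ratio 1 was higher and 2 lower (NDUFA7 and NDUFB5), with a median of -0.15. Of the 27, 23 had their highest stage mean at 1 dpn and 4 at 28 dpn, or 16 and 9 with the arrays of lower ratio. A difference between core and accessory subunits was not tested. NDUFA8, NDUFA9, NDUFA10 and NDUFA11 were lower at 188 dpn than at 28 dpn, by log2 -0.79 to -1.03.

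**Figure D3:**
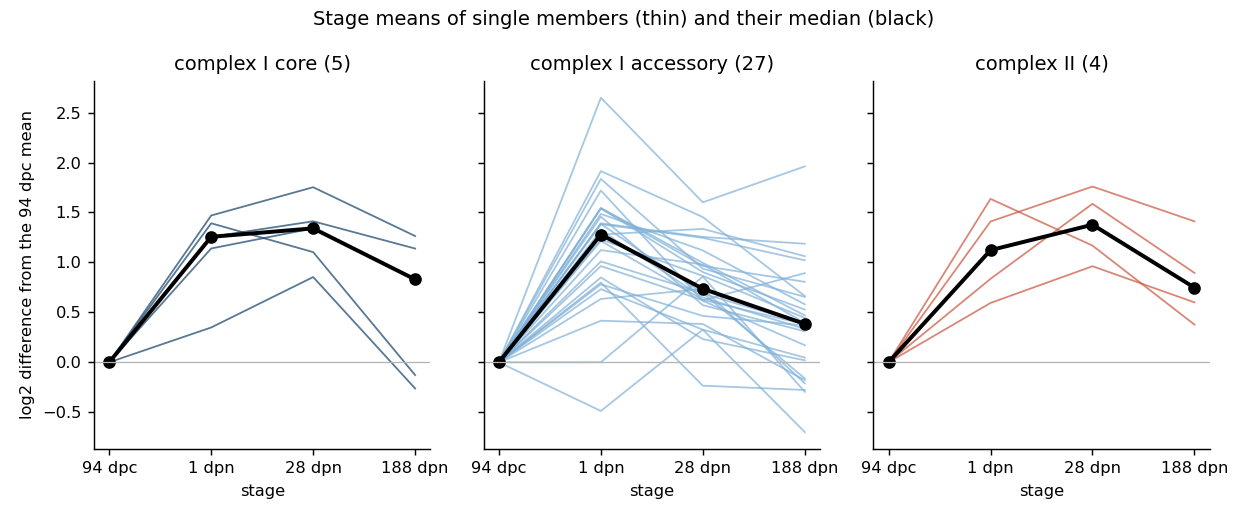
Thin lines are single members and the black line their median: stage mean of log2(signal + 16) minus the 94 dpc mean, over the 4 ages, for core and accessory subunits of complex I and for complex II. At 28 dpn the median of the core subunits and of complex II is above its 1 dpn value and that of the accessory subunits is below it, on all 22 arrays.

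NDUFC1, in the membrane arm, had the largest rise in complex I. Its signals were 2195, 2408 and 3033 at 94 dpc, 5552, 20261 and 27665 at 1 dpn, 6134, 7524 and 8818 at 28 dpn, and 8179.9, 9847, 12027 and 9247 at 188 dpn. The 2 low values of 1 dpn, 5552 and 8910.1, were those of the arrays with the lower GAPDH ratio. The rise at 1 dpn was log2 2.65 (SE 0.29, adjusted p = 6.15e-07), or 1.49 with those arrays alone. The change at 28 dpn compared with 1 dpn was -1.05 (SE 0.29, adjusted p = 0.0122), but 0.11 (adjusted p = 0.795) with those arrays alone. NDUFC1 was 3.89-fold higher at 188 dpn than at 94 dpc (adjusted p = 4.94e-05), without overlap of values.

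NDUFC2, its neighbour in the same arm, had signals of 5195, 6000.4 and 7324 at 94 dpc, 7145, 24676 and 29974 at 1 dpn, 8009, 9097 and 12299 at 28 dpn, and 6499.6, 6917, 6712 and 7496 at 188 dpn. Replicate 1 of 1 dpn lay within the 94 dpc range and the other 5 lay above it. NDUFC2 was higher at 1 dpn by log2 1.72 (SE 0.26, adjusted p = 2.13e-05) and lower at 28 dpn by -1.10 (SE 0.26, adjusted p = 0.00313), the largest fall in complex I. The second change was -0.26 (adjusted p = 0.56) with the arrays of lower ratio. NDUFAB1, the mitochondrial acyl carrier protein, had signals of 9727, 12731 and 14035 at 94 dpc, 15908, 42166 and 46881 at 1 dpn, 20208, 27446 and 31765 at 28 dpn, and 19592, 20081, 16760.5 and 18153 at 188 dpn. Its only called step was the rise at 1 dpn (log2 1.49, adjusted p = 1.58e-05; 0.80 and adjusted p = 0.0147 with the arrays of lower ratio).

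NDUFS6, a zinc-binding accessory subunit, was the complex I gene that was higher at 28 dpn than at 1 dpn. Its signals were 2662, 3090.2 and 3369 at 94 dpc, 1509.9, 1755 and 4705 at 1 dpn, 3349, 3614 and 4938 at 28 dpn, and 2459, 3935, 2975 and 3368 at 188 dpn. On the 1 dpn arrays of lower ratio it stood at 2759 and 4705, and on the other 4 it lay between 1509.9 and 1814. The change was log2 0.81 (SE 0.22, adjusted p = 0.0103) on all arrays and 0.08 (adjusted p = 0.855) with the arrays of lower ratio. NDUFV3, read by a dim probe set, had signals of 36.2, 157 and 196 at 94 dpc, 23.4, 163 and 251 at 1 dpn, 112, 279 and 326 at 28 dpn, and 90.0, 177, 31.3 and 176 at 188 dpn. Single values of it fell below background, and no step was called.

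NDUFA1, needed for assembly of the membrane arm, was read by 2 probe sets that differed in size and, over the whole span, in direction. The brighter gave log2 1.54 at 1 dpn compared with 94 dpc and -0.55 at 28 dpn compared with 1 dpn (adjusted p = 0.0423), or 1.06 and -0.066 (adjusted p = 0.884) with the arrays of lower ratio. The dimmer gave 1.96 and -2.84 (adjusted p = 0.000681) in the same comparisons on all arrays. At 188 dpn compared with 94 dpc the dimmer was lower (-2.11, adjusted p = 0.00926), while the brighter had no call at 0.47 (adjusted p = 0.094) with every 188 dpn value above every 94 dpc value. Over the 15 members with several probe sets, 18 further probe sets gave 0 calls opposite to the brightest one in any comparison, and 5 of the 18 had means below background. The sign was the same in 12 of 18 at 1 dpn, 10 at 28 dpn and 13 at 188 dpn. The call, or its absence, was the same in 8, 6 and 17 of the 18 in these steps.

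Complex II, succinate dehydrogenase, belongs to both the citric acid cycle and the respiratory chain, and all 4 of its subunits were measured. All 4 were higher at 1 dpn than at 94 dpc, with a median of log2 1.12 (1.04 with the 1 dpn arrays of lower ratio, where SDHD had no call). At 28 dpn compared with 1 dpn the median was 0.36, and SDHB was the subunit called higher. SDHB, SDHC and SDHD had their highest stage mean at 28 dpn, and SDHA did too with the arrays of lower ratio. SDHB, SDHC and SDHD were higher at 188 dpn than at 94 dpc. After quantile normalization the median at 188 dpn compared with 94 dpc was 0.26, with no call for SDHB (0.37, adjusted p = 0.0706) or SDHD (0.14, adjusted p = 0.568). The rises of SDHB and SDHD at 1 dpn lost their calls there too.

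SDHB, the iron-sulphur subunit, had signals of 8294, 10243 and 11507 at 94 dpc, 16412, 18263 and 19579 at 1 dpn, 26352, 30937 and 34059 at 28 dpn, and 16686, 17785, 18687 and 22807 at 188 dpn. The ranges of 94 dpc, 1 dpn and 28 dpn did not overlap, and those of 188 dpn lay below all of 28 dpn. The steps were log2 0.84 (SE 0.13, adjusted p = 4.46e-05), 0.75 (SE 0.13, adjusted p = 0.000277) and -0.69 (SE 0.15, adjusted p = 0.00354). With the 1 dpn arrays of lower ratio the change at 28 dpn was 0.65 (adjusted p = 0.018). A second, much dimmer SDHB probe set had no call in any step. It changed by 0.16 (adjusted p = 0.73) at 28 dpn and by 0.13 (adjusted p = 0.849) at 188 dpn. SDHC, a membrane anchor that helps bind haem and ubiquinone, had signals of 1923, 2231 and 2400.2 at 94 dpc, 4903, 5781 and 7126 at 1 dpn, 6375, 7362 and 10078 at 28 dpn, and 5159.6, 5941, 6687 and 5874 at 188 dpn. It was 2.66-fold higher at 188 dpn than at 94 dpc (adjusted p = 4.36e-07).

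SDHA, the flavoprotein that oxidises succinate, was read by 2 probe sets that differed after 1 dpn. The brighter had signals of 6613, 8327 and 9806 at 94 dpc, 16468, 28927 and 30992 at 1 dpn, 15456, 17382 and 25611 at 28 dpn, and 9197, 10318, 10854 and 11627 at 188 dpn. The dimmer had signals of 900.0, 988 and 1100.0 at 94 dpc, 1244, 1613 and 4431 at 1 dpn, 4711, 5743 and 8817 at 28 dpn, and 2106, 2631, 2734 and 2693 at 188 dpn. At 28 dpn compared with 1 dpn the brighter changed by log2 -0.47 (adjusted p = 0.066) and the dimmer by 1.57 (adjusted p = 5.86e-05). The 1 dpn arrays of lower ratio held the 2 lowest values of the brighter probe set, 16468 and 19156, and the 2 highest of the dimmer, 4431 and 2826. Both probe sets were called higher at 1 dpn than at 94 dpc (1.64 and 0.99) and lower at 188 dpn than at 28 dpn (-0.79 and -1.23).

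Complex III was represented by 2 small nuclear subunits, UQCRB and UQCR10. UQCRB, which contributes to the ubiquinone-binding region, had signals of 5575, 6682 and 7626 at 94 dpc, 19781, 40542 and 44605 at 1 dpn, 17135, 18498 and 23002 at 28 dpn, and 15079, 17674, 17392 and 16411 at 188 dpn. It rose by log2 2.33 at 1 dpn (SE 0.19, adjusted p = 1.93e-08; 1.68 with the arrays of lower ratio). It was lower at 28 dpn by -0.80 (adjusted p = 0.00388; -0.15 and adjusted p = 0.637 with the arrays of lower ratio), and its level at 188 dpn was 2.51-fold that at 94 dpc. UQCR10 had signals of 8532, 10861 and 12359.5 at 94 dpc, 15579, 39580.2 and 46592 at 1 dpn, 23461, 28552 and 36584 at 28 dpn, and 18969.6, 17663, 16745 and 20570.2 at 188 dpn. Its rise at 1 dpn was 1.59 (adjusted p = 7.64e-06; 0.85 with the arrays of lower ratio) and neither later step was called.

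CYCS, the soluble carrier between complexes III and IV, had signals of 1232, 3014 and 4049 at 94 dpc, 8147, 17902 and 27039 at 1 dpn, 6613, 10467 and 13366 at 28 dpn, and 5753, 6167, 10829 and 9434 at 188 dpn. Every value of the 3 later ages lay above every value of 94 dpc. The rise at 1 dpn was log2 2.66 (SE 0.30, adjusted p = 7.37e-07), or 2.08 with the arrays of lower ratio. The later steps were -0.77 (adjusted p = 0.0697) and -0.36 (adjusted p = 0.571). CYCS was 2.9-fold higher at 188 dpn than at 94 dpc (adjusted p = 0.000832).

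Complex IV reduces oxygen, and its nuclear subunits include pairs of a muscle or heart form and a general form. Of its 8 measured members 7 were higher at 1 dpn than at 94 dpc and 6 with the arrays of lower ratio, where COX8H had no call. COX7A1, the muscle and heart form of subunit 7a, had signals of 9423, 12929 and 14663 at 94 dpc, 22924, 40844 and 47391 at 1 dpn, 36168, 40342 and 50492 at 28 dpn, and 20895, 23132, 24865 and 27949 at 188 dpn. COX7A2, the general form, had signals of 9469, 10208 and 11844 at 94 dpc, 15990.0, 29877 and 36862 at 1 dpn, 5306, 8116 and 10484 at 28 dpn, and 4658, 3955, 4164 and 6947 at 188 dpn. Both were higher at 1 dpn, by log2 1.57 and 1.45. COX7A2 was then lower at 28 dpn by -1.86 (SE 0.21, adjusted p = 2.36e-06) without overlap of values, while COX7A1 had no call (0.21, adjusted p = 0.483). Relative to 94 dpc, COX7A1 was 2-fold higher at 188 dpn and COX7A2 2.14-fold lower.

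The 2 forms can be set against each other within each array, which cancels a factor common to the array. The difference COX7A1 minus COX7A2 averaged 2.42 ± 0.28 at 28 dpn and 0.35 ± 0.30 at 1 dpn (log2, SD, n = 6 each), a change of 2.07 with no overlap. The exact two-sided permutation test gave p = 0.0022, the smallest that 6 against 6 allows, and 0.0065 after adjustment over the 9 isoform tests made. With the 2 arrays of lower ratio the change was 2.25, and the test could then not reach the threshold (adjusted p = 0.129). The difference changed by 0.12 at 1 dpn compared with 94 dpc (adjusted p = 0.441) and by -0.10 at 188 dpn compared with 28 dpn (adjusted p = 0.6).

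COX8H, a heart-type form of subunit 8, had signals of 10603, 14869 and 15688 at 94 dpc, 17534, 36094 and 45476 at 1 dpn, 33407, 43625 and 47887 at 28 dpn, and 21231, 24595, 27829 and 22349.5 at 188 dpn. The 1 dpn arrays of lower ratio held its 2 lowest values, 17534 and 18253. Its change at 28 dpn compared with 1 dpn was log2 0.44 (adjusted p = 0.174) on all arrays and 1.21 (adjusted p = 0.000638) with those 2 arrays, and the corresponding values of COX7A1 were 0.21 and 0.78 (adjusted p = 0.0122). COX8H was lower at 188 dpn than at 28 dpn by -0.80 (adjusted p = 0.0402), without overlap of values. The call was lost when arrays were centred on the median probe set (adjusted p = 0.122). It was also lost when any of 8 of the 10 arrays of the 2 ages was left out (adjusted p between 0.0556 and 0.1). Quantile normalization kept it (adjusted p = 0.0244), as did the fits with the 1 dpn arrays of lower (adjusted p = 0.00297) or higher ratio (adjusted p = 0.00197).

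COX6A1, the general form of subunit 6a, was the member of complex IV without a call at 1 dpn. Its signals were 6296, 7472 and 9330.2 at 94 dpc, 3085, 5671 and 11348 at 1 dpn, 3291, 3568 and 4850.5 at 28 dpn, and 2606, 1834, 1273 and 4941 at 188 dpn. No single step was called, but at 188 dpn it was 3.22-fold lower than at 94 dpc (log2 -1.69, SE 0.32, adjusted p = 0.000175), without overlap. Its muscle partner COX6A2 is not analysed here. NDUFA4 had signals of 15733, 20530.4 and 21452 at 94 dpc, 32661, 41355 and 44107 at 1 dpn, 41989.7, 43039 and 56414 at 28 dpn, and 27747, 33778, 32613 and 30126 at 188 dpn. It was higher at 1 dpn by 1.01 (adjusted p = 7.19e-06) and lower at 188 dpn than at 28 dpn by -0.55 (adjusted p = 0.0204; 0.162 when arrays were centred).

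**Figure D4:**
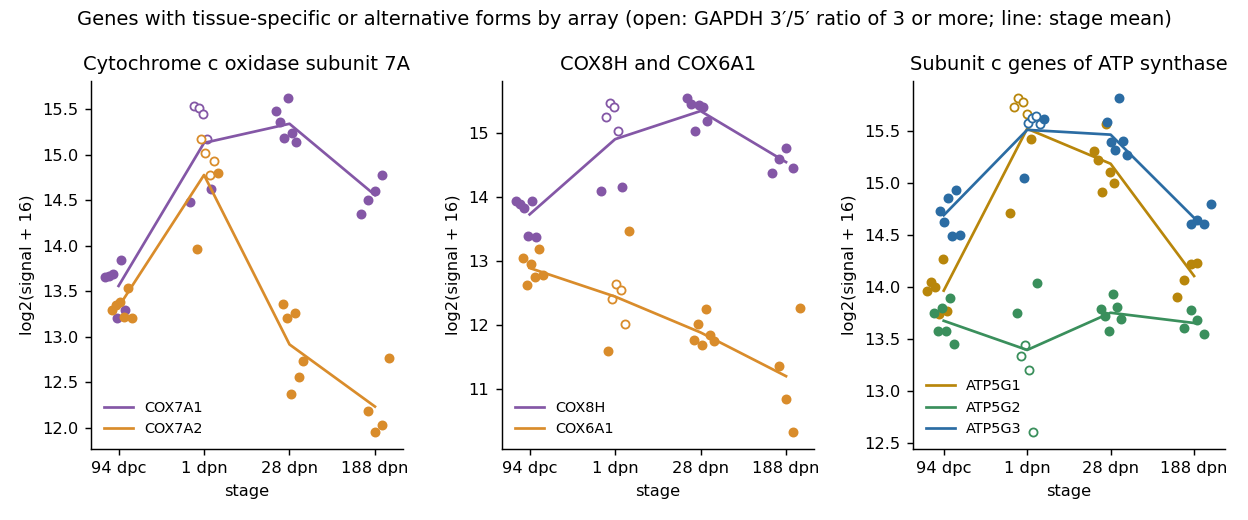
Log2(signal + 16) of single genes on each array over the 4 ages, with lines through stage means; open points are the 1 dpn arrays with a GAPDH 3′/5′ ratio of 3 or more. COX7A2 is lower on all arrays of 28 dpn than on any of 1 dpn while COX7A1 overlaps between them. ATP5G2 shows no called step when all arrays are used as deposited. Heights of different genes are not comparable, because each has its own probe set.

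Complex V consists of the F1 part, where ATP is made, and the peripheral stalk and membrane part that carries the proton flow. The 4 measured F1 subunits (ATP5A1, ATP5B, ATP5D and ATP5E) were all higher at 1 dpn than at 94 dpc, with a median of log2 1.00 (0.74 with the arrays of lower ratio, where ATP5E had no call). After quantile normalization 2 of the 4 were higher in that step, with a median of 0.47, and ATP5D and ATP5E had no call. None of the 4 was called at 28 dpn compared with 1 dpn on all arrays. ATP5A1, the alpha subunit, had signals of 17489, 20563 and 24074 at 94 dpc, 32421, 52592 and 57205 at 1 dpn, 52143, 55935 and 63608 at 28 dpn, and 34358, 32876, 34357 and 38923 at 188 dpn. Its change at 28 dpn compared with 1 dpn was 0.28 (adjusted p = 0.217) on all arrays and 0.72 (adjusted p = 0.00642) with the arrays of lower ratio, with which all 4 F1 subunits were highest at 28 dpn. ATP5A1, ATP5B and ATP5D were lower at 188 dpn than at 28 dpn by -0.62 to -0.70, and all 3 calls were lost when arrays were centred. ATP5E, the epsilon subunit, had signals of 28013, 32941 and 35916 at 94 dpc, 36775, 49297 and 57456 at 1 dpn, 37462, 44809 and 53761 at 28 dpn, and 34679, 38084, 37128 and 34874 at 188 dpn.

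Of the 9 peripheral stalk and membrane members 8 were higher at 1 dpn than at 94 dpc, with a median of log2 1.19 (0.81 with the arrays of lower ratio). ATP5I, subunit e, which helps join synthase dimers, had signals of 202, 598 and 788 at 94 dpc, 4874, 17939 and 23450.5 at 1 dpn, 749, 2311 and 6015 at 28 dpn, and 1781, 1981, 1838 and 151 at 188 dpn. Its rise was 4.78 (SE 0.63, adjusted p = 4.77e-06) and 3.48 (adjusted p = 0.00732) with the arrays of lower ratio, on which it stood at 4874 and 5557. The fall at 28 dpn was -2.58 (adjusted p = 0.00462) on all arrays and -1.28 (adjusted p = 0.368) with those arrays. A second ATP5I probe set was below background on average. ATP5L, subunit g, was also lower at 28 dpn than at 1 dpn (-0.82, adjusted p = 0.000594), with -0.55 and no call with the arrays of lower ratio. Its other, dimmer probe sets had no call in that step, at -0.22 (adjusted p = 0.662) and 0.59 (adjusted p = 0.113). ATP5J, a stalk subunit, was the complex V member with its highest mean at 188 dpn, where it was 2.87-fold higher than at 94 dpc (adjusted p = 1.24e-06).

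Subunit c, whose ring turns in the membrane, is encoded by ATP5G1, ATP5G2 and ATP5G3, which give the same mature protein and differ in the leader peptide. ATP5G1 had signals of 13659, 16136 and 19718 at 94 dpc, 26812, 52965 and 57551 at 1 dpn, 30798, 36589 and 48425 at 28 dpn, and 15322, 17096, 19090.5 and 19178 at 188 dpn. ATP5G3 had signals of 22972, 26154 and 31275 at 94 dpc, 33689, 49392 and 50926 at 1 dpn, 39294, 43112 and 57609 at 28 dpn, and 24901, 25519, 24916 and 28479 at 188 dpn. Both were higher at 1 dpn (log2 1.55 and 0.82) and lower at 188 dpn than at 28 dpn (-1.08, adjusted p = 0.00134, and -0.80, adjusted p = 0.00264). ATP5G2 had signals of 11186, 12989.8 and 15204 at 94 dpc, 6223, 10701 and 16796 at 1 dpn, 12206, 13791 and 15592 at 28 dpn, and 12479, 13995, 13129 and 11969.6 at 188 dpn. Its largest change was 0.36 at 28 dpn compared with 1 dpn (adjusted p = 0.176), and its values overlapped between all neighbouring ages. That change was -0.14 (adjusted p = 0.634) with the 1 dpn arrays of lower ratio. With those of higher ratio it was 0.61 and called (adjusted p = 0.00615).

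Within arrays, ATP5G1 minus ATP5G3 was 0.01 ± 0.22 at 1 dpn and -0.72 ± 0.10 at 94 dpc (log2, SD, n = 6 each), a change of 0.73 without overlap (exact permutation test, adjusted p = 0.0065). It changed by -0.29 at 28 dpn compared with 1 dpn (adjusted p = 0.039) and by -0.28 at 188 dpn compared with 28 dpn (adjusted p = 0.0343), both with overlapping values. ATP5G2 minus ATP5G3 was -2.11 ± 0.60 at 1 dpn and -1.01 ± 0.06 at 94 dpc, a change of -1.10 without overlap (exact permutation test, adjusted p = 0.0065). It was -1.01 ± 0.17 at 188 dpn (n = 4) and -1.71 ± 0.12 at 28 dpn (n = 6), a change of 0.70 without overlap (exact permutation test, adjusted p = 0.0214). The 3 genes of 1 protein thus changed unequally around birth and after 28 dpn. With the 1 dpn arrays of lower ratio the changes at 1 dpn were 0.46 and -0.42, and 2 against 6 arrays could not reach the threshold.

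**Figure D5:**
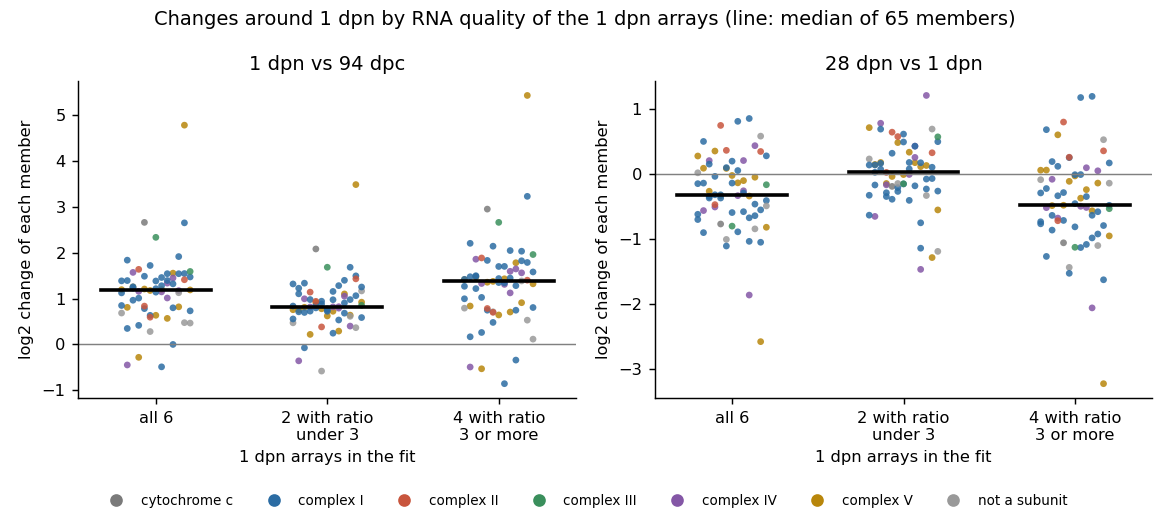
Each point is 1 of the 65 members: its log2 change from the fit with all 6 arrays of 1 dpn, with the 2 whose GAPDH 3′/5′ ratio was under 3, or with the 4 whose ratio was 3 or more; bars are medians. At 1 dpn compared with 94 dpc the medians are 1.19, 0.82 and 1.37, and at 28 dpn compared with 1 dpn they are -0.32, 0.03 and -0.48.

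Over the whole span, at 188 dpn compared with 94 dpc, 25 members were higher and 3 lower, where 13.6% of all probe sets were called higher and 22.5% lower. Among the probe sets brighter than the median one 32 members were higher and 4 lower, against shares of 23.0% and 36.9%. The median of the members was log2 0.41 on the deposited scale, against -0.07 for all probe sets, but -0.05 against 0.06 after quantile normalization, with 15 higher and 11 lower (17.2% and 18.1% of all probe sets). Centring each array gave 42 higher and 2 lower (21.3% and 16.6%), with medians of 0.68 and 0.20. The members' median minus that of all probe sets was 0.48 as deposited, -0.11 after quantile normalization and 0.48 when centred, so the direction for the group as a whole depended on scaling. Every 188 dpn value lay above every 94 dpc value in 33 members and below in 3, which held for 13.8% and 21.4% of all probe sets. The 3 lower members were COX6A1, COX7A2 and NDUFA11, and 18 of the 28 calls were shared with quantile normalization. NDUFC1 (log2 1.96), CYCS (1.54) and ATP5J (1.52) were the furthest up.

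Among the 5 members that are not subunits, 3 were called higher at 1 dpn. SDHAF2, which helps attach the flavin of SDHA, was higher at 1 dpn (log2 1.13, adjusted p = 0.000106) and lower at 28 dpn (-0.84, adjusted p = 0.00295). With the arrays of lower ratio these changes were 0.61 (adjusted p = 0.0385) and -0.33 (adjusted p = 0.324). NDUFAF1, an early complex I assembly factor, had signals of 121, 146 and 178 at 94 dpc, 155, 212 and 239.8 at 1 dpn, 278, 290.0 and 465 at 28 dpn, and 390.0, 354, 296 and 354 at 188 dpn. On all arrays it was called higher at 1 dpn by 0.47 (adjusted p = 0.0264) and at 28 dpn by 0.59 (adjusted p = 0.0106). With the arrays of lower ratio the first was 0.37 without a call (adjusted p = 0.279) and the second 0.70 (adjusted p = 0.0454). Its other probe set changed by -0.07 without a call at 1 dpn and was higher at 28 dpn by 1.68 (adjusted p = 0.000576). NDUFAF2 was 2-fold lower at 28 dpn (adjusted p = 0.00794; log2 -0.14 with the arrays of lower ratio), and ATP5S was higher at 1 dpn (0.68, adjusted p = 0.00409). The ATP5S change was 0.47 with the arrays of lower ratio (adjusted p = 0.174), and its other probe set gave -0.0040 there on all arrays. NDUFAF3 had signals of 2016, 2295 and 2439 at 94 dpc, 1835, 2792 and 6820.1 at 1 dpn, 1929.9, 2142 and 2751 at 28 dpn, and 1491, 1895, 1775 and 2159 at 188 dpn, with both 1 dpn arrays of lower ratio above the other 4.

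Genes around the pathway were taken from 3 lists, whose counts stand against the same shares of all probe sets as above: 10.9% higher and 21.7% lower at 1 dpn, 13.9% and 8.39% at 28 dpn, and 3.65% and 8.20% at 188 dpn. Of 20 measured assembly factors, 4 of which are among the members above, 13 were higher and 0 lower at 1 dpn, 3 higher and 6 lower at 28 dpn, and 0 higher and 6 lower at 188 dpn. BCS1L, which completes complex III, rose most at 1 dpn (log2 1.59, adjusted p = 0.000115; 1.08 with the arrays of lower ratio). OXA1L, which inserts proteins into the inner membrane, was higher at 1 dpn by 1.48 and 2-fold lower at 28 dpn (adjusted p = 3.64e-05), also with a call on the arrays of lower ratio (log2 -0.71, adjusted p = 0.0103). TMEM126B, of the complex I assembly machinery, rose most at 28 dpn (1.27, adjusted p = 3.73e-05) without overlap, and ACAD9, another complex I assembly factor, fell most at 188 dpn (-0.96).

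Of 15 measured carriers and partners of ATP export and proton leak 11 were higher and 1 lower at 1 dpn, 0 and 2 at 28 dpn, and 0 and 3 at 188 dpn. CKMT2, the mitochondrial creatine kinase of muscle, rose most (4.82, or 4.20 with the arrays of lower ratio; mean signal 40585 at 1 dpn and 1376 at 94 dpc). SLC25A6, one of the genes for the ADP/ATP exchanger, was lower at 1 dpn by -0.55 (-0.09 and no call with the arrays of lower ratio), whereas the muscle and heart form SLC25A4 was higher by 1.38. SLC25A6 was lower again at 188 dpn by -1.66 (adjusted p = 5.51e-05), and over the whole span it fell 5.72-fold. PHB2, a scaffold protein of the inner membrane, had the largest fall at 28 dpn (-1.12, or -1.30 with the arrays of lower ratio).

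The 12 measured regulators of mitochondrial biogenesis gave 2 higher and 1 lower at 1 dpn, 2 higher and 4 lower at 28 dpn, and 1 higher and 1 lower at 188 dpn. PPARGC1A, the coactivator best known for driving mitochondrial biogenesis in muscle, averaged 339 ± 126 at 1 dpn and 492 ± 102 at 94 dpc (signal, SD, n = 6 each; log2 -0.60, adjusted p = 0.0915). With the arrays of lower ratio that change was -1.08 (adjusted p = 0.039). TFAM, the packaging and transcription factor of mitochondrial DNA, was lower at 1 dpn (-0.51, adjusted p = 0.0492; -0.98 with the arrays of lower ratio). SIRT3 (0.93) and PPARD (0.67) were higher, both without a call with the arrays of lower ratio. PRKAA2, a catalytic subunit of AMP-activated kinase, rose most at 28 dpn compared with 1 dpn (0.95), PPARGC1A was higher by 0.86 (adjusted p = 0.0226) and PPRC1 fell most (-0.69). PPRC1, a relative of PPARGC1A, also fell at 188 dpn (-0.86), and YY1 was the regulator that was higher there (0.66).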

How the data were processed

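RNA of 22 samples was measured on Affymetrix porcine arrays, 1 array a sample. The deposited values are linear intensity signals per probe set, and GCOS 1.1.1 is named per the submitters' processing notes. The background and normalization steps are not given in the sources used here. In the deposited values every array has the same mean near 500 once 2% of the probe sets are trimmed at each end, so signals are relative within an array. Signals run from 1 to 111760.

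Of 24123 probe sets 124 controls were left out. Of the 23999 tested, 10069 carry 1 gene symbol in the platform annotation, 198 carry several and 13732 none, and only those with 1 were named. All 65 members were found in the RefSeq gene table. Background was 1 fixed signal, 69.7, taken from the values of 23 control probe sets without a target.

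limma 3.58.1 in R 4.3.3 was fitted to log2(signal + 16) with 1 mean per age over all 22 arrays, without covariates. It gave an F test over the ages and contrasts between them, with empirical Bayes variances and Benjamini-Hochberg adjustment over all 23999 probe sets. A change is called at an adjusted p under 0.05, and fold changes understate those of dim genes because of the offset. Pairs of related genes were compared by exact two-sided permutation tests of their within-array difference (scipy 1.17.1), adjusted over 9 tests. The number of arrays limits the precision.

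The members and lists were chosen with earlier results of these data known. Full values were given, per complex and step, to the called members with the largest rise and fall, to the members with the highest and lowest mean, to the genes of related pairs, to CYCS and to members without a call in the F test; from each list the largest called rise and fall were named. NDUFS1, ATP5A1, NDUFAF1 and the other genes named beyond this rule were chosen after their values were seen. The alternatives were quantile normalization, centring on the median probe set, a pseudocount of 1, another variance model, a filter on dim probe sets, the mean of a gene's probe sets, subsets by the GAPDH ratio or that ratio as a covariate, the compared ages alone, and leaving out each array. The GAPDH control pair was picked from those on the array after its values were seen. A second pair stayed at or below 2.02 on every array, and replicate 2 of 1 dpn lay just past the limit of 3. The 3′ to 5′ ratio of the actin controls was 25.9 to 32.6 on replicates 2 to 5 of 1 dpn. It was 4.20 to 10.3 on all other arrays.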

Additional observations from a re-analysis of the deposited data

Results flagged for a closer look

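In 112 sets of values, each of 1 gene or complex at 1 age, 10 had a highest or lowest array far from the others by Dixon's criterion, where chance gives about 1 in 20. At 1 dpn, replicate 1 was the low value in 4 of them. It read 7145 for NDUFC2 (the next value was 17808), 15990.0 for COX7A2 (next 28045), 26812 for ATP5G1 (next 43762) and 33689 for ATP5G3 (next 48290). This array has a GAPDH 3′/5′ ratio of 0.875, and the part of that ratio in these values was not tested.

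The largest gap relative to the range was that of ATP5I at 188 dpn, where replicate 4 read 151 and the next value was 1781. SDHA was high on replicate 4 of 28 dpn, at 25611 against 17677 for the next, and the median relative level of complex V was also highest on that array, at 0.52 against 0.29 for the next. NDUFAB1 was low on replicate 6 of 94 dpc, at 9727 with 12627 next. NDUFV3 was low on replicate 3 of 94 dpc, at 36.2 with 119.6 next, and on replicate 5 of 28 dpn, at 111.9 with 224.6 next. The first of these NDUFV3 values lies below the background signal of 69.7.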

How the results depend on the processing

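Members called at 28 dpn compared with 1 dpn numbered 21. They numbered 34 with centring, 10 and 38 with the 1 dpn arrays of GAPDH ratio under 3 and of 3 or more (the higher-ratio subset was chosen after seeing the data), 11 with the ratio as a covariate and 12 with these ages alone. The covariate gave 5 higher and 6 lower, against 11.8% and 5.83% of all probe sets. These ages alone gave 1 higher and 11 lower, against 8.92% and 5.03%. Leaving out single arrays gave 18 to 32, the highest without replicate 1 of 1 dpn. There were 16 calls at 188 dpn compared with 28 dpn, against 9 with centring, 25 and 28 with the same subsets, and 11 to 22 without single arrays. All of these were falls. The share of all probe sets called lower was 8.20%, or 4.77% with centring and 10.9% and 11.2% with the subsets. The subsets leave the log2 changes of this step as they were and alter only the shared variance estimate. There were 28 at 188 dpn compared with 94 dpc, against 44 with centring and 24 to 34 without single arrays. Counts without single arrays were 56 to 58 at 1 dpn and 60 to 62 for the F test.

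The median change at 1 dpn was 0.75 after quantile normalization and 0.82 with the lower-ratio arrays (1.14 to 1.30 without single arrays). At 28 dpn it reversed to 0.030 with the lower-ratio arrays (-0.37 to -0.24 without single arrays). At 188 dpn compared with 94 dpc it reversed to -0.052 after quantile normalization and was 0.68 with centring (0.37 to 0.48 without single arrays). It was -0.45 to -0.34 at 188 dpn compared with 28 dpn without single arrays. NDUFC1 at 28 dpn reversed to 0.11 with the lower-ratio arrays, and SDHA there reversed to 0.55 (adjusted p = 0.00985) as the mean of its probe sets. The causes were not tested.

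With the lower-ratio arrays, where 2 against 6 arrays cannot pass the threshold, COX7A1 minus COX7A2 at 28 dpn changed by 2.25. ATP5G1 minus ATP5G3 then changed by 0.46, -0.018 and -0.28 in the 3 steps, and ATP5G2 minus ATP5G3 by -0.42 at 1 dpn and 0.70 at 188 dpn. The changes at 188 dpn involve no 1 dpn array and equal those of the main test. Their adjusted p of 0.0857 (exact permutation test) differs from the main one only through the adjustment over all 9 tests. ATP5G2 minus ATP5G3 at 28 dpn was called with the higher-ratio arrays (0.74) and without replicate 1 of 1 dpn (0.57). ATP5G1 minus ATP5G3 lost its call at 28 dpn after quantile normalization (-0.28, adjusted p = 0.0751), without any of replicates 2 to 5 of 1 dpn and without replicates 1, 3, 4, 5 or 6 of 28 dpn. At 188 dpn it lost its call without replicates 1, 4, 5 or 6 of 28 dpn or 1, 2 or 4 of 188 dpn. Without single arrays the changes in the 3 steps ran from 0.06 to 0.23, 1.96 to 2.13 and -0.18 to 0.00 for COX7A1 minus COX7A2, from 0.70 to 0.80, -0.36 to -0.25 and -0.34 to -0.23 for ATP5G1 minus ATP5G3, and from -1.26 to -0.93, 0.23 to 0.57 and 0.65 to 0.78 for ATP5G2 minus ATP5G3. No paired analysis was possible because replicate numbers were given in accession order and pair no animals across ages. Every alternative set beforehand was run.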
